A study of Mus musculus with 6 samples.

Results

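The Msx and Dlx homeobox factors were examined in C3H10T1/2 cells, a mouse mesenchymal line of embryonic origin that can form fat, cartilage and bone cells in culture. The group was defined by name, as every probe set whose platform gene symbol was Msx1, Msx2 or Dlx1 to Dlx6, and comprised 8 of the 18193 genes named on the array, with 12 of its 45101 probe sets and at least 1 for each gene. Treated cells received BMP4 at 50 ng/ml while they proliferated, and the control cells were handled alike without BMP4. Both were left until past confluence before total RNA was taken, with 3 arrays in each group and no other agent or genetic change named in the labels. A single cell line was used, so the values describe that line, and the labels do not state separate cultures for the replicates, so p-values here reflect sample-to-sample spread that may be technical. The series asked which genes respond to BMP4 when such cells commit to the fat lineage.

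Msx and Dlx proteins are transcription factors that bind DNA through a homeodomain. Msx proteins mostly repress and Dlx proteins mostly activate, and members of both families can pair with each other and compete for similar sites. In limb, jaw, tooth and skull mesenchyme their genes are classical responders to BMP ligands, whose receptors phosphorylate Smad proteins that enter the nucleus. Msx2 is also known to restrain fat cell formation, and Dlx5 is known as an activator of bone genes.

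At this time point 0 of the 7 Msx and Dlx probe sets bright enough to be tested were past the test (limma, Benjamini-Hochberg adjusted p under 0.05), with 1 of the 7, for Msx2, at an unadjusted p under 0.05, which 22.5% of all probe sets tested reached. The adjusted rule called 9.12% of all probe sets tested, so a count of 0 among 7 does not set these genes apart from the rest of the array. Msx1 and Dlx5 had the brightest probe sets among the members, and their groups overlapped. Dlx2 and the brighter Dlx4 probe set were dimmer, yet also above background on all 6 arrays. Msx2, Dlx2 and Dlx4 had all 3 BMP4 arrays above all 3 control arrays on their brighter or only probe set, by a ratio of mean signals of 1.57, 1.38 and 1.3. Such a separation with BMP4 above held for 15% of all probe sets tested. Dlx1, Dlx3 and Dlx6 were at or near background. In bulk RNA, fewer cells that use a gene and less of its RNA per cell cannot be told apart.

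Signals are the authors' linear values, whose trimmed mean was 150 on each array, and they were used without further scaling. The highest signal of 27 probe sets for Bacillus subtilis transcripts, which mouse RNA should not bind, served as background and was 29.1. Of the 12 Msx and Dlx probe sets, 5 exceeded it on all 6 arrays, 4 on some and 3 on none. BMP4 arrays had somewhat more dim signal. On them 56.0% to 59.0% of probe sets exceeded the background, against 54.4% to 55.7% on the control arrays, and the highest Bacillus signal was 23.5, 29.1 and 24.1 on the BMP4 arrays, against 17.1, 16.6 and 21 on the control arrays. The part of this shift in the differences of dim genes was not tested. All 8 mesenchymal markers listed, among them Col1a1, Vim and Pdgfrb, were above background on all 6 arrays. Markers of other cell types were mixed, counted by the brightest probe set of each gene. Of 8 epithelial markers on the array, 3 were above background on all 6 arrays (Epcam, Krt8 and Krt5) and 3 on none (Cdh1, Krt18 and Esrp1). The other Epcam probe set was under it on all 6. Of 5 blood markers, 2 were above it on all arrays (Csf1r and Cd68) and 3 on none (Cd3e, Itgam and Ptprc). Of 6 endothelial markers, 1 was above it on all arrays (Tek) and 2 on none (Pecam1 and Tie1). Of 5 markers of the forebrain interneurons that depend on Dlx genes, 0 were above it on all arrays, 3 on some and 2 on none, and the GABA enzyme gene Gad2 exceeded it on 5 of 6 arrays.

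**Figure D1:**
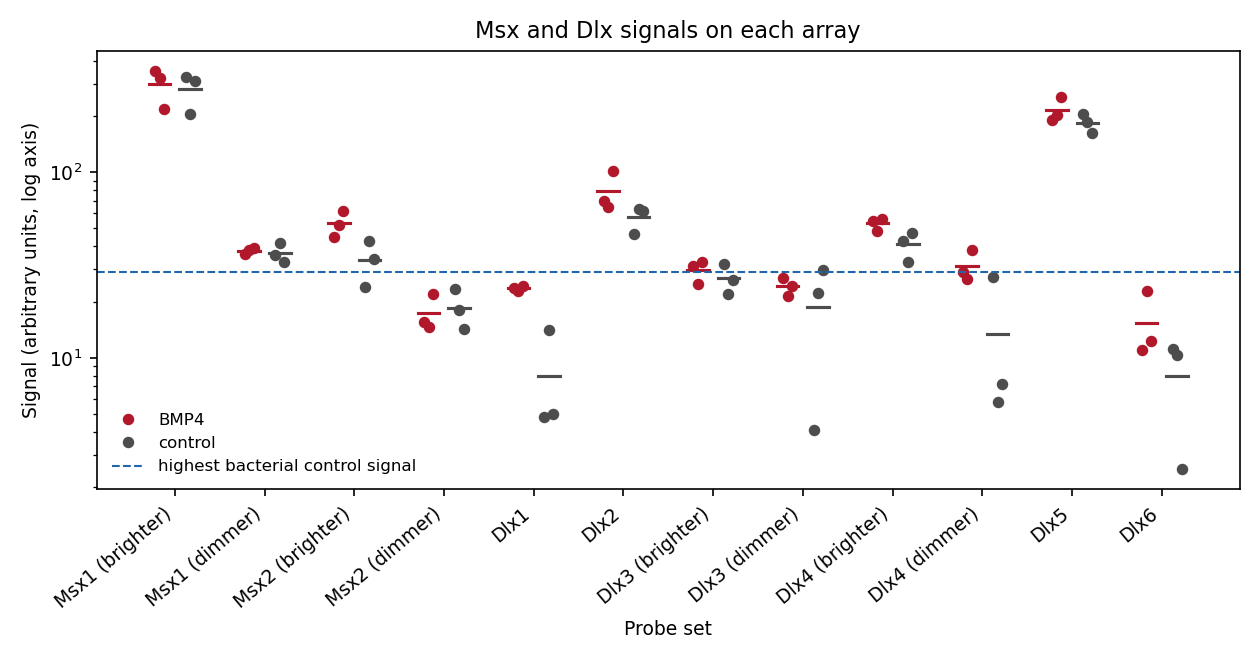
Signal of each Msx and Dlx probe set (horizontal axis) on each array, in arbitrary units on a log axis, with BMP4 arrays left of control arrays, bars at the group means and a dashed line at the highest Bacillus control signal, 29.1. Dlx5 and the brighter Msx1 probe set lie well above the line with overlapping groups, while Dlx1 and Dlx6 lie under it on all 6 arrays.

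The promoters of Msx2 and Dlx2 are shown because these genes had the largest differences among the members tested. The sequences are RefSeq's for GRCm38.p6, each 250 bases before to 50 after the start of the gene, written on the gene's own strand, which is the minus strand for both. Capitals mark GGCGCC, a GC-rich element that Smad proteins of the BMP pathway can bind. The Msx2 promoter lies at chr13:53472731-53473030 and the Dlx2 promoter at chr2:71546705-71547004.
Msx2: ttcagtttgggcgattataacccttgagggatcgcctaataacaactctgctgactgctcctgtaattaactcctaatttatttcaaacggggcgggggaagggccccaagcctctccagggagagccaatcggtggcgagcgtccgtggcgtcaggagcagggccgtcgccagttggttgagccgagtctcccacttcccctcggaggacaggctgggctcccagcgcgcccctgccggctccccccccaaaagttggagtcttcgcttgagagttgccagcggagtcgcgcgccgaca
Dlx2: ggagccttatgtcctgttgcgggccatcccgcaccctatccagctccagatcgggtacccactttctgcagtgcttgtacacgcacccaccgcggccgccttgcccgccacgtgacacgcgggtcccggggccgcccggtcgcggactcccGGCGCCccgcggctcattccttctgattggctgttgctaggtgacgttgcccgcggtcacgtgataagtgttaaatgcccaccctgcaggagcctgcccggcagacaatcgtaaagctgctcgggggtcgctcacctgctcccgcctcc
The table held promoters for 4 of the 8 members, Msx1, Msx2, Dlx1 and Dlx2. GGCGCC reads the same on both strands and occurred once in the Dlx2 promoter, starting 99 bases before the gene's start, and not in the other 3, while 11.9% of 32851 promoters of this length held it. TAATTG, a core that homeodomains can bind, was searched on both strands and found in 0 of the 4, against 8% of all promoters. The motifs shared no bases. The Msx2 promoter was 61% G and C and the Dlx2 promoter 66.3%.

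Msx1, a repressor that keeps mesenchymal progenitors from differentiating, had the brightest probe set of the group. Its signals were 353, 322.3 and 220.3 on the BMP4 arrays, against 326.2, 206.4 and 311.3 on the control arrays. The lowest array of each group fell well under the other 2, and the groups overlapped throughout. Means were 299 ± 69.5 with BMP4 and 281 ± 65.3 in control cells (SD, n = 3 each). On the log2(signal + 16) scale, used for every log2 change given here, the difference was 0.08 (95% interval -0.33 to 0.49, limma adjusted p = 0.844). The interval reached to both sides of 0. A dimmer Msx1 probe set read 36.3, 38.2 and 38.9 with BMP4, against 35.7, 41.5 and 32.8 in control cells, a difference of 0.03 (-0.34 to 0.41, limma adjusted p = 0.934). Its signals were only just over background. Single arrays set the sign of the brighter probe set, which gave -0.05 without BMP4 replicate 1 and -0.12 without control replicate 2.

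Msx2, a repressor of skull and tooth mesenchyme whose gene is a known direct Smad target, showed the largest difference among the members tested. Its brighter probe set had signals of 44.9, 52.2 and 61.8 on the BMP4 arrays, against 24.1, 42.6 and 34.2 on the control arrays. All BMP4 arrays were above all control arrays, and 1 control array was under background. Means were 53.0 ± 8.48 with BMP4 and 33.6 ± 9.26 in control cells (SD, n = 3 each), a log2 change of 0.48 ± 0.19 (SE, 95% interval 0.06 to 0.91). It did not pass the test over all probe sets (limma adjusted p = 0.167, unadjusted p = 0.0304). The log2 change lay between 0.26 and 0.66 over the other settings run, and 0 of 13 gave a call. A second, dimmer Msx2 probe set did not separate the groups, at 15.5, 14.6 and 22 with BMP4 against 23.5, 18.1 and 14.3 in control cells. All 6 of those values were under background.

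Dlx1 and Dlx2 lie side by side in the genome and act together in forebrain neurons and in the upper jaw. Dlx2 had signals of 70.2, 64.9 and 101.7 on the BMP4 arrays, against 46.7, 63.3 and 61.9 on the control arrays. The groups did not overlap, but 64.9 and 63.3 nearly met, and BMP4 replicate 3 stood well above the rest. The log2 change was 0.36 ± 0.18 (SE, 95% interval -0.04 to 0.76, limma adjusted p = 0.27). Without BMP4 replicate 3 it was 0.20. Dlx1 read 23.8, 22.9 and 24.5 with BMP4, against 4.8, 14.2 and 5 in control cells. The 3 BMP4 values were close together and above every control value, yet all 6 were under the background of 29.1, and only 2 exceeded the highest Bacillus signal of their own array. The mean of its log2 signals was under the filter, which stood at a signal of 23.45, so Dlx1 has no call. In a fit without the filter its difference was 0.75 (95% interval 0.30 to 1.20, limma adjusted p = 0.085), and a separation with BMP4 above was seen at 8.76% of the probe sets under the filter.

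Dlx3 and Dlx4 are neighbours too, Dlx3 being known for hair, tooth and bone and Dlx4 for placenta. The brighter Dlx4 probe set had signals of 54.8, 48.3 and 55.8 on the BMP4 arrays, against 42.4, 32.9 and 47.2 on the control arrays. The groups did not overlap, with the closest arrays at 48.3 and 47.2. The log2 change was 0.29 ± 0.17 (SE, 95% interval -0.09 to 0.66, limma adjusted p = 0.355). A dimmer Dlx4 probe set gave 29, 26.5 and 38.2 with BMP4, against 27.4, 5.8 and 7.2 in control cells. Here 1 control array lay among the BMP4 arrays and only 1 value exceeded background. This probe set was under the filter, and in a fit without it the difference was 0.75 (95% interval 0.09 to 1.41, limma adjusted p = 0.244). Dlx3 gave 31.4, 25 and 32.9 with BMP4, against 32.1, 22 and 26.3 in control cells, on its brighter probe set. These values straddled the background and mixed between the groups, with a log2 change of 0.10 (-0.32 to 0.52, limma adjusted p = 0.811). The dimmer Dlx3 probe set ran between 21.6 and 27 with BMP4, against 4.1 to 29.7 in control cells, so the control range enclosed the BMP4 range.

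Dlx5 and Dlx6 form the pair best known for the lower jaw and for bone. Dlx5 was the second brightest member. Its signals were 191.5, 203.4 and 253.9 on the BMP4 arrays, against 207.1, 185.7 and 163.5 on the control arrays. BMP4 replicate 3 was the highest and control replicate 3 the lowest, and the other 4 arrays overlapped. Means were 216 ± 33.1 with BMP4 and 185 ± 21.8 in control cells (SD, n = 3 each), a log2 change of 0.20 ± 0.12 (SE). The 95% interval was -0.06 to 0.47 (limma adjusted p = 0.362), the narrowest among those tested. Like the intervals of all other Msx and Dlx probe sets tested, it excludes a log2 change of 1 in either direction on this scale. Dlx6 read 11, 22.9 and 12.3 with BMP4, against 11.1, 10.4 and 2.5 in control cells. All 6 values were under background and no difference in its level was detectable.

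**Figure D2:**
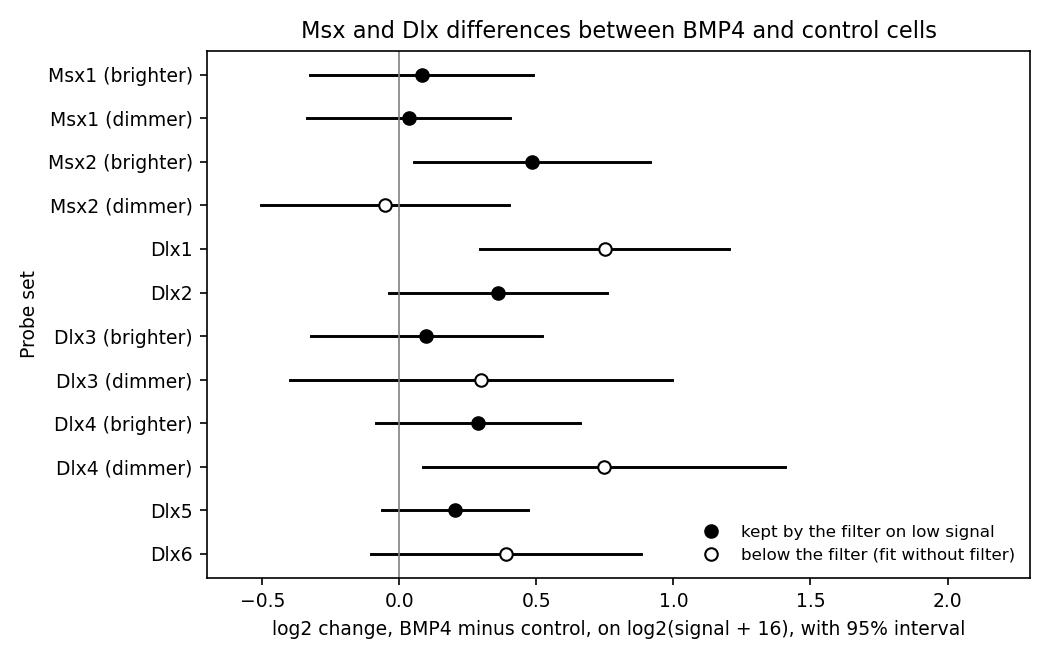
Log2 change of each Msx and Dlx probe set, BMP4 minus control (horizontal axis), with 95% intervals, where filled points were kept by the filter on low signal and open points come from a fit without it. The intervals include 0 at 6 of the 7 filled points, Msx2 being the exception at 0.06 to 0.91. Among the open points, those of Dlx1 (0.30 to 1.20) and the dimmer Dlx4 probe set (0.09 to 1.41) also lie above 0, on signals mostly under background. In the fit without the filter 0 of 12 points passed the adjusted test, where 4.05% of all probe sets did.

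Of the 12 probe sets, 11 had a log2 change above 0 in the fit without the filter. The exception was the dimmer Msx2 probe set at -0.05. The share of all probe sets with a change above 0 is not given here, so this count does not set the group apart. The median of the 7 tested was 0.20, against 0.03 for all probe sets tested and 0.05 for all those under the filter. BMP4 arrays had more dim signal, and its part in these signs was not tested. The signs of the smallest differences depended on scaling. When each array was centred on its median signal, both Msx1 probe sets turned negative, at -0.01 and -0.06, and 5 of 7 stayed above 0. With quantile normalization 6 of 7 did.

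**Figure D3:**
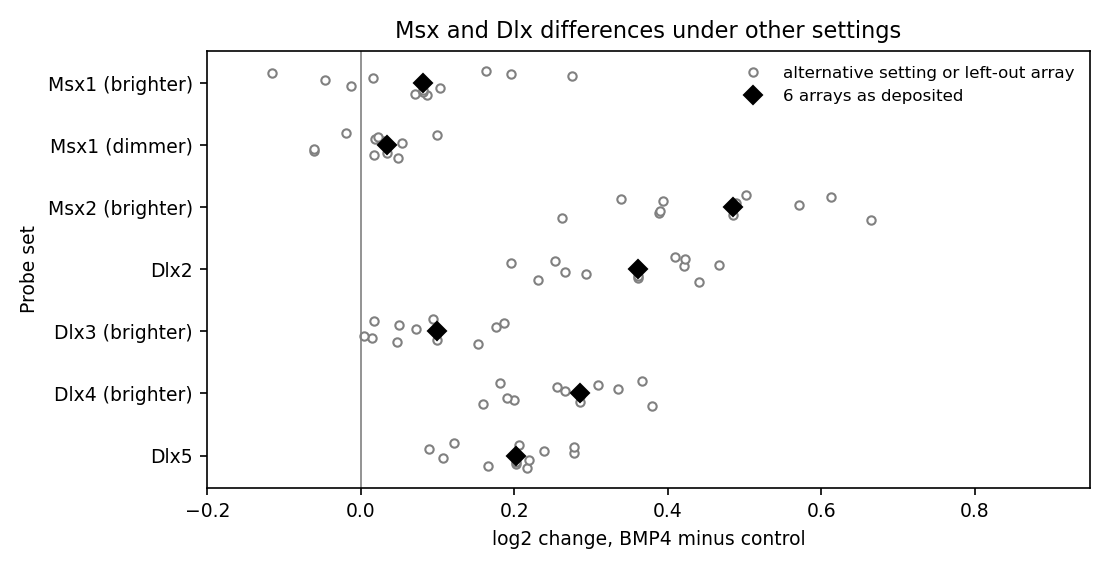
Log2 change, BMP4 minus control (horizontal axis), of the 7 Msx and Dlx probe sets tested, with diamonds for the 6 arrays as deposited and open circles for each other setting or left-out array. Msx1 moved to both sides of 0, whereas Msx2 stayed between 0.26 and 0.66.

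Among 14 measured ligands, receptors and signal carriers of the BMP pathway, each counted by its brightest probe set, 0 genes rose and 2 fell, with a median of -0.10. For comparison, 10.7% of all 12966 genes tested passed, 5.03% higher and 5.66% lower, with a median of 0.03. Those that fell were Bmp4 itself, at 604.1, 550.9 and 575.3 with BMP4 against 1079.3, 1033.5 and 1093.5 in control cells (log2 -0.87 ± 0.07, SE, limma adjusted p = 1.51e-05), and the co-receptor Rgma (log2 -0.69). Rgmb, a related co-receptor, did not pass on its brightest probe set (log2 -0.25, limma adjusted p = 0.09), except with each array centred on its median (0.0489). Of its 5 other probe sets above the filter 1 passed, with 150.6, 138.5 and 158.8 with BMP4 against 233.7, 228.8 and 195.9 in control cells (log2 -0.51 ± 0.10, SE, limma adjusted p = 0.00927), a call lost without control replicate 1 (0.0513) and named after its value was seen. Among 14 measured direct targets and feedback inhibitors, 1 rose and 2 fell, with a median of 0.03, against the same 10.7% of all genes. Bambi, a decoy receptor that dampens BMP signalling, rose to 412.9, 367.4 and 341 with BMP4, against 246.3, 236 and 279.3 in control cells (log2 0.53 ± 0.09, SE, limma adjusted p = 0.00462). Fst, an activin and BMP antagonist, fell (log2 -0.98), and Id2, an inhibitor of helix-loop-helix factors, fell (log2 -0.40). The call of this Id2 probe set was lost without the trend or the filter. It was also lost when BMP4 replicate 1 (limma adjusted p = 0.0718), control replicate 1 (0.074) or control replicate 2 (0.0589) was left out. A dimmer Id2 probe set also passed as lower (log2 -0.29, limma adjusted p = 0.0353), while another, under the filter, had its BMP4 arrays above its control arrays. Id1 gave 0.10 (limma adjusted p = 0.477), and the inhibitory Smad gene Smad6 gave 0.41 (limma adjusted p = 0.0556). Smad6 passed with quantile normalization (limma adjusted p = 0.0443) and with a filter at the 60th percentile (0.0411).

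Among 11 measured proteins known to bind Msx or Dlx proteins, 1 was higher and 1 was lower, with a median of -0.03, against 5.03% and 5.66% of all genes. Pax9, which works with Msx1 in tooth mesenchyme, fell to 94.2, 81.1 and 81.1 with BMP4, against 153.5, 148 and 153.4 in control cells (log2 -0.73 ± 0.11, SE, limma adjusted p = 0.00189). The groups were far apart relative to their spread, and 2 dimmer Pax9 probe sets gave -0.99 and -1.14 (limma adjusted p = 0.000713 and 0.00408). Cebpa, an adipogenic factor that Msx2 is known to bind, rose to 280.8, 322.2 and 364.8, against 144.9, 139.8 and 169.1 in control cells (log2 1.01 ± 0.11, SE, limma adjusted p = 0.000188). Maged1, a Dlx5 and Msx2 binding protein, was bright and did not pass (log2 -0.16, limma adjusted p = 0.32).

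Among 11 measured bone and cartilage genes that act with or downstream of these factors, 2 rose and 2 fell, with a median of 0.05, against 5.03% and 5.66% of all genes. Of the cartilage genes, Sox9, a transcription factor (log2 1.29), and Col2a1, the main cartilage collagen (1.92), rose. Acan (log2 -0.04, limma adjusted p = 0.934) and Ihh (log2 -0.07, limma adjusted p = 0.849) did not pass, and Col10a1 was under the filter. A Sox9 probe set near background gave -0.10 (limma adjusted p = 0.812). Phex, an endopeptidase of bone mineralisation, fell (log2 -1.16), as did Twist1, a helix-loop-helix factor of skull mesenchyme (-0.48, limma adjusted p = 0.044). The call of Twist1 was lost under 9 of 14 other settings, including each left-out array except BMP4 replicate 2. Sp7, a bone factor that Dlx5 is known to activate, had 65.8, 66.6 and 55.7 with BMP4, against 61.1, 52.9 and 65.8 in control cells. Its groups overlapped, and its log2 change was 0.05 (95% interval -0.28 to 0.38, limma adjusted p = 0.881). The bone matrix gene Ibsp gave 0.24 (limma adjusted p = 0.49).

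Of 16 other homeobox factors of mesenchyme measured outside the Hox clusters, each counted by its brightest probe set, 0 were higher and 2 lower at the adjusted threshold (limma), with a median of -0.18, against 5.03% and 5.66% of all genes. Irx5, of the Iroquois family, fell to 365.8, 426.4 and 377.1 with BMP4, against 633.6, 549.5 and 517.6 in control cells (log2 -0.52 ± 0.09, SE, limma adjusted p = 0.00413). Meis2, a partner of Hox proteins, fell to 895.7, 890.9 and 897.6, against 1162.7, 1145.6 and 1115.9 (log2 -0.35 ± 0.06, SE, limma adjusted p = 0.00424). Without the intensity trend Meis2 missed the threshold (limma adjusted p = 0.0545), and of 3 other Meis2 probe sets 1 passed, at -0.26, a call lost when any 1 array was left out. Prrx1, a factor of limb and skull mesenchyme, did not pass on its brightest probe set (log2 -0.18, limma adjusted p = 0.209), except with quantile normalization (0.00551). Of its 4 other probe sets above the filter 1 passed, with 1089, 1160 and 1143.4 with BMP4 against 1542.1, 1722.8 and 1515.9 in control cells (log2 -0.49 ± 0.07, SE, limma adjusted p = 0.0014), a call kept under all 14 other settings and named after its value was seen. Msx3, the third mouse Msx gene, had 20.8, 34.8 and 42.6 with BMP4, against 32.2, 34.7 and 40.1 in control cells, close to background and overlapping.

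Adipogenic factors had the largest share of called genes among the 6 related groups. Of 8 measured, 5 rose and 1 fell, with a median of 0.86, against 5.03% and 5.66% of all genes. The fatty acid carrier Fabp4 (log2 1.97), the hormone gene Adipoq (1.69), the commitment factor Zfp423 (1.08) and the nuclear receptor Pparg (0.70) rose with Cebpa. The control values of Adipoq, 22.9, 12.6 and 14.8, were all under background, against 92.2, 85 and 89.1 with BMP4. The size of its change therefore rests on control signals that cannot be told from background. The lipoprotein lipase gene Lpl fell (log2 -0.63, limma adjusted p = 0.0224), a call lost under 5 of 14 other settings, among them leaving out BMP4 replicate 3 (limma adjusted p = 0.056), control replicate 1 (0.0998) or control replicate 3 (0.0741), and it was named after its value was seen. The largest log2 change among the 7 Msx and Dlx probe sets tested, 0.48 for Msx2, was smaller than that of each of these 5 genes that rose. The 5 were taken because they passed the test and Msx2 did not, so this order was partly fixed by the choice. The constant added to each signal before taking logs also shrinks the changes of dim genes most. By ratio of mean signals, Msx2 was at 1.57 and Pparg, the lowest of the 5, at 1.68.

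**Figure D4:**
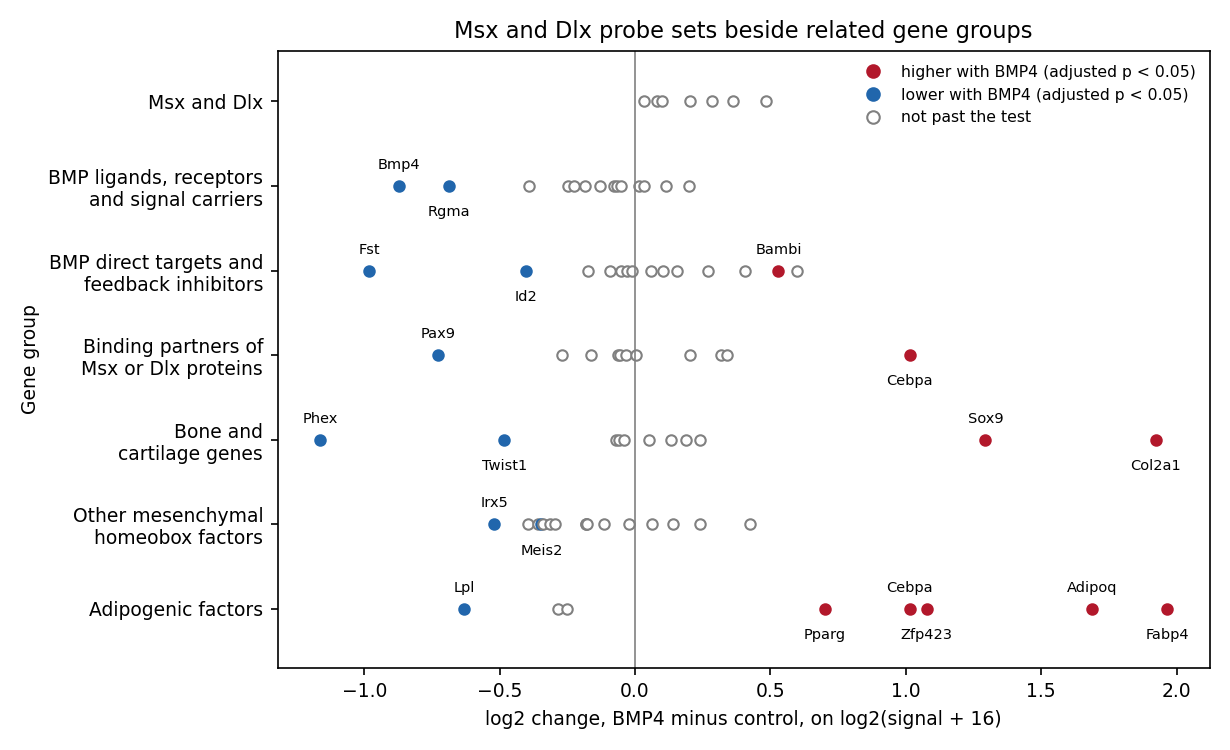
Log2 change, BMP4 minus control (horizontal axis), of the 7 Msx and Dlx probe sets tested and of the measured genes of 6 related groups (1 probe set a gene), filled where past the adjusted test. Msx and Dlx points run between 0.03 and 0.48 with 0 filled, beside 5 filled points above 0 among adipogenic factors.

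The genes next to the Msx and Dlx loci were read for comparison. Itga6, the integrin chain that lies beside the Dlx1 and Dlx2 pair, was the neighbour that passed the test. Its brighter probe set had 83.4, 98.3 and 145.5 on the BMP4 arrays, against 34.7, 49.4 and 37.4 on the control arrays, with a wide gap between the groups. The log2 change was 1.12 ± 0.20 (SE, limma adjusted p = 0.00423), and a dimmer Itga6 probe set gave 1.13 (limma adjusted p = 0.0203). The call of the dimmer probe set was lost when BMP4 replicate 3 (limma adjusted p = 0.0759), control replicate 1 (0.072) or control replicate 2 (0.0638) was left out. It was also lost without the filter (0.0697) and without the trend (0.0527). The control values of the dimmer probe set, 6.3, 13.7 and 27.8, were all under background. Metap1d, the other neighbour of that pair, gave 0.05 (limma adjusted p = 0.907). Stx18 beside Msx1, Sptlc1 beside Msx2, Itga3 and Tac4 beside the Dlx3 and Dlx4 pair, and Sem1 and Sdhaf3 beside the Dlx5 and Dlx6 pair did not pass on any probe set kept, although 1 of the Sptlc1 probe sets passed, as lower, when arrays were centred on their medians (limma adjusted p = 0.0489, against 0.13). The dopamine receptor gene Drd1 beside Msx2 and the cytokine gene Cytl1 beside Msx1 were under the filter.

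The genes whose log2 signals followed the 3 brightest members most closely over the 6 arrays were found among all named probe sets kept. For Msx1 they were Cd209c (Pearson r = 0.994), Nagpa (0.988) and Top3b (0.986). For Dlx5 they were Sc5d (0.998), Slc45a2 (0.989) and Hnrnpd (0.988), and for Dlx2 they were Dis3, Srebf2 and Ccdc80 (each 0.988 to 0.989). These values are a description over 6 arrays, the highest found in a search of every named probe set kept, which covered 12966 genes. Between BMP4 and control cells 0 of these 9 genes passed the test, against 10.7% of all genes tested. They were picked to follow members that did not pass, so that count was nearly fixed by the choice.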

How the data were processed

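Total RNA of 6 samples was labelled with biotin and read on single-colour arrays. The deposited values are linear signal intensities, which the authors obtained with GCOS 1.3 according to the submitters' processing notes. How they were scaled and background-corrected is not given in the sources used. Groups and replicate numbers came from the sample titles. After removal of 64 control probe sets, log2(signal + 16) was computed. Probe sets with a mean log2 value over all 6 arrays above the 40th percentile (a signal of 23.45) were kept, which left 27022. The groups were compared in R 4.3.3 by limma 3.58.1, with lmFit and a two-sided eBayes test that models the trend with intensity. Benjamini-Hochberg adjusted p-values over the whole filtered table were called under 0.05. Genes in lists used their brightest kept probe set with 1 symbol. The test was first run on simulated data with known changes, which had independent noise and no shift of whole arrays. The share recovered at each size of change is not given here, so no detection limit for the members follows from it.

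Symbols came from the platform annotation, and neighbours from the GRCm38.p6 gene table, used for names only. Named were all members on every probe set, up to 4 called genes per list by size, or that with the smallest p, 8 fixed genes (1 is not reported here), the nearest named neighbours and the 3 genes most like each of the 3 brightest members. Others were chosen after their values were seen. Members and lists were chosen with earlier results of these data known. The number of arrays limits the precision.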

Additional observations from a re-analysis of the deposited data

How the results depend on the processing

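The counts of Msx and Dlx probe sets past the test were 0 higher and 0 lower under all 14 other settings, with lowest adjusted p-values (limma) between 0.147 and 0.338, against 0.167 as reported. Over the whole array, 1136 probe sets were higher and 1328 lower. Centring each array on its median gave 632 higher, so that 25.1% of the called probe sets were higher, against 46.1%, and moved the median change by 0.09 on the log2 scale. Without the intensity trend there were 659 higher and 763 lower. Leaving out 1 array gave 768 to 945 higher and 845 to 1063 lower, the lowest counts of lower probe sets being 845 without control replicate 1 and 854 without control replicate 2. The cause was not tested. List counts also moved by over 1.5 times. BMP targets higher were 2 or 3 under 6 settings, against 1, and lower 1 under 5 settings, against 2. Bone and cartilage genes lower were 1 under 9 settings, against 2. Other homeobox genes lower were 1 without the trend, against 2, and adipogenic factors lower were 0 or 2 under 6 settings, against 1. With the replicate number as a block, 985 probe sets were higher and 1105 lower and Msx2 gave a limma adjusted p of 0.175. Deviations of same-numbered samples correlated at 0.01, -0.003 and -0.072, and not every sample correlated best with its own number, so the numbers were not taken as a pairing. For Dlx1, Dlx3 and Dlx6 signals near or under background limit what can be seen.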

Other observations

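Id4, a helix-loop-helix inhibitor related to the BMP targets Id1 and Id3, was higher with BMP4 on probe sets dimmer than the one that stood for it in the list. The brightest had 94.8, 119.1 and 135.9 on the BMP4 arrays, against 59.7, 65.3 and 90.6 on the control arrays, and just missed the threshold (log2 0.60 ± 0.17, SE, limma adjusted p = 0.0515). The second had 72.6, 73 and 122.8, against 31.9, 43.1 and 31.9 in control cells (log2 1.0 ± 0.20, SE, limma adjusted p = 0.01), a call kept under all 13 other settings that measured it. The third gave 0.77 (limma adjusted p = 0.024), a call lost when BMP4 replicate 3 (0.0915), control replicate 2 (0.0734) or control replicate 3 (0.0827) was left out, without the filter (0.0715) and with a replicate block (0.0525). The groups did not overlap on any of the 3 probe sets, and the choice of the brightest probe set decided whether Id4 was counted.

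Transcripts antisense to Dlx genes have probe sets of their own. Dlx6os1, a long noncoding RNA known from the forebrain, read 24.2, 31.2 and 24.4 on the BMP4 arrays, against 18.2, 11.1 and 19.8 on the control arrays, with 1 of 6 values above the background of 29.1. Dlx1as, Dlx4os and Dlx6os2 were under background on all 6 arrays. Cytl1, which lies beside Msx1, read 34.4, 10.7 and 90.8 with BMP4, against 12.8, 4.4 and 6.2 in control cells, so 2 BMP4 arrays exceeded background and the third fell within the control range. These genes were chosen after their values were seen.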
